A study of Bos taurus with 81 samples.

Results

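The step from the 4-cell to the 8-cell stage was followed for acetylation of histone H3 at lysine 27 (H3K27ac) in bovine embryos, using 4 peak lists out of the 81 of the series: 2 of 4-cell embryos (4C) and 2 of 8-cell embryos (8C), on autosomes 1 to 29. These lists held 88062 and 84519 autosomal peaks at 4C and 80815 and 84007 at 8C. The embryos were produced in vitro, from oocytes aspirated from slaughterhouse ovaries, matured in culture and fertilised with thawed semen. 4C and 8C embryos were cultured without inhibitor and collected 44 h and 56 h after insemination. Each library pooled the embryos that gave about 1000 to 1500 blastomeres, the cells of a cleaving embryo, so it averages over embryos and over cells within them. More cells with a mark and more of the mark in each cell cannot be told apart in such a pool. Whether the replicates came from separate fertilisations is not given in the sources used here, so the spread between them may be technical. For comparison, 12 lists of H3K4me3, H3K27me3 and H3K9me3 of the same stages were read (2 per mark and stage). The other 14 H3K27ac lists (2 per group) were of germinal vesicle oocytes (GV), taken before maturation, 2-cell embryos (2C, 32 h), 8-cell embryos cultured with 50 μg/ml α-amanitin (8A, 56 h), morulae (MO, 122 h), blastocysts (BL, 172 h), and the 2 blastocyst lineages, inner cell mass (ICM, from immunosurgery) and trophectoderm (TE, cut off with a blade). Open chromatin was read from 9 ATAC-seq lists, 3 each of BL, ICM and TE. Marker genes of the embryo or of remaining cumulus cells were not analysed here, since the gene table at hand is on another assembly than the peaks.

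H3K27ac is placed by acetyltransferases on the nucleosomes of active promoters and enhancers, and deacetylases remove it. In cattle the embryo's own genome is switched on in its major wave around the 8-cell stage, when transcripts stored in the oocyte are being cleared. H3K4me3 sits mainly at promoters and is found with H3K27ac where these are active. H3K27me3, laid down by the Polycomb system, and H3K9me3, the mark of constitutive heterochromatin and silenced repeats, are found at silent sequence. H3K27me3 is on the same lysine as H3K27ac, so a single histone tail cannot carry both.

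H3K27ac peaks covered about double the length at 8C while their number was slightly lower. Peaks covered 43.4 Mb and 44.0 Mb of the autosomes in the 4C lists and 90.5 Mb and 89.7 Mb in the 8C lists, or 1.75% and 1.77% against 3.64% and 3.61%. The 2 groups did not overlap. The 8C lists covered 2.06 times the length of the 4C lists, a log2 ratio of 1.04 against a pooled replicate SD of 0.011 (n = 2 and 2). The H3K27ac replicates of the other groups differed more in covered length, most of all those of 2C, with 55.0 Mb and 67.8 Mb. The exact two-sided permutation test gave p = 0.333, the smallest p that 2 against 2 libraries allow. The mean number of autosomal peaks was 86291 ± 2505 (SD, n = 2) at 4C and 82411 ± 2257 at 8C.

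The peaks were wider at 8C. The median width was 450 bp in both 4C lists and 900 bp and 850 bp in the 8C lists. The shift ran through the whole distribution: the 10th percentile was 300 bp in both 4C lists and 550 bp in both 8C lists, and the 99th was 1400 and 1450 bp against 4200 and 4000 bp. Peaks of 2 kb or more numbered 175 and 185 at 4C and 7266 and 6527 at 8C, and they held 1.05% ± 0.049 of the covered length at 4C and 22.6% ± 1.79 at 8C (SD, n = 2 each). Peaks of 5 kb or more numbered 3 and 4 at 4C and 450 and 364 at 8C. The widest peak was 6.55 and 7.05 kb in the 4C lists and 16.4 and 16.0 kb in the 8C lists.

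**Figure D1:**
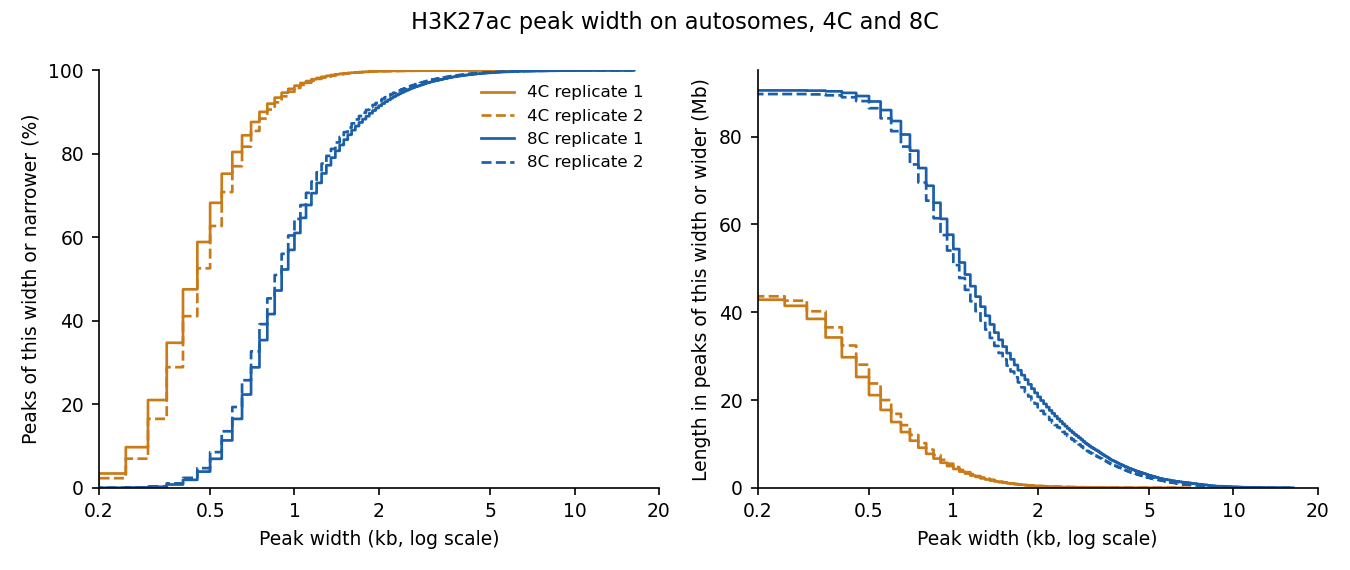
Width of H3K27ac peaks on autosomes in each of the 4 lists (4C orange, 8C blue; solid line replicate 1, dashed replicate 2), on a log axis in kb. Left, percentage of peaks of a given width or narrower; right, the length in Mb held by peaks of a given width or wider, which starts near 44 Mb at 4C and near 90 Mb at 8C. The replicates of a stage run close together and the stages are separate over the whole range.

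The same widening was seen at sites shared by the stages. Of the peaks of 4C replicate 1, 20863 (23.7%) overlapped a peak in each of the other 3 lists. At these sites the median width was 550 and 600 bp at 4C and 1450 and 1400 bp at 8C, and 79.5% of them were wider in both 8C lists than in both 4C lists while 1.18% were narrower. A wide peak is more likely to overlap another peak than a narrow one, so the widths at shared sites are above those of the lists as a whole. The sites are also peaks of 4C replicate 1, so a wide 8C peak over several of them counts once for each. Counted per peak, 8C peaks that overlapped both 4C lists had medians of 1150 and 1100 bp. The 4C peaks that overlapped both 8C lists had a median of 500 bp in both lists.

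Within some stages peak width also moved with a property of the lists. The peak score is a whole number whose meaning the lists do not state, and its 1st percentile per 200 bp of peak, taken here as the floor of a list, was 11.1 and 11.3 at 4C and 8.43 and 8.44 at 8C. Within other stages the 2 replicates differed in the same way, with a floor of 11.6 against 8.42 in GV, 12 against 8.75 in 8A and 12 against 8.47 in MO. There the list with the lower floor had fewer peaks (log2 ratio -0.25, -0.44 and -0.41) and a greater median width (0.42, 0.45 and 0.54), while its covered length hardly differed (0.16, -0.04 and -0.03). From 4C to 8C the median width changed by 0.96 and the covered length by 1.04 on the same log2 scale, both more than in any of these 3 same-stage pairs. The 2C lists, with floors of 8.00 and 8.35, had median widths of 750 and 850 bp. Across groups a lower floor did not always go with wider peaks. The lowest floors were those of BL (6.86 and 7.11) and TE (7.11 and 7.14). Their median widths were 550 bp in both BL lists and 550 and 600 bp in the TE lists. The ICM lists, with floors of 8.38 and 8.27, had a median of 800 bp in both. The part of the floor in the 4C-to-8C change of width was not tested, and sequencing depth is unknown.

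Positions were then compared in 1 kb bins, a bin being called marked where peaks covered at least 50% of it. The 4C lists marked 31411 and 33898 of 2487802 autosomal bins and the 8C lists 96613 and 95484. Gained bins, marked in both 8C lists and in neither 4C list, numbered 45679 (1.84% of all bins). Lost bins, marked in both 4C lists and neither 8C list, numbered 4796 (0.193%), and kept bins, marked in all 4 lists, 7627 (0.307%). Gained bins outnumbered lost bins 9.52 to 1, a ratio that depends on the settings though it stayed above 1: it was 3.26 and 3.88 without 4C replicate 1 and 2, 2.49 with lists trimmed to equal covered length, 2.16 with any covered base marking a bin, 4.48 with 500 bp bins, 46.1 with 5 kb bins and 107 with full coverage. A further 94163 bins were marked in 1 to 3 lists in some other way. Most of these were marked in 1 list only: 56139 in a single 8C list and 19140 in a single 4C list. The classes ask for both lists of a stage, so they grow when 1 is left out: gained bins numbered 73079 and 74418 without 8C replicate 1 and 2, lost bins 15642 and 13090 without 4C replicate 1 and 2, and kept bins 12699 and 13017 without these.

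The narrow peaks of 4C bear on what the classes hold, since a peak of under 500 bp cannot mark a 1 kb bin. No 4C peak touched 28136 of the gained bins (61.6%), a peak of 1 list touched 23.7%, and peaks of both 4C lists touched 14.7% without covering 50% of the bin in either. Over all bins 93.3% were touched by no 4C peak, so gained bins were touched by 4C peaks more often than bins at large. Of the lost bins, 4152 (86.6%) were touched by no 8C peak, against 92.0% of all bins. The gained class held both bins without any 4C peak and bins where 4C peaks were narrower.

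Calls made from 1 library of each stage were read in the libraries that had not made them. Bins gained between 1 4C and 1 8C list were marked in the other 8C list in 62.7% to 63.9% of cases over the 4 pairings and in the other 4C list in 8.12% to 8.56%. Bins lost between 1 4C and 1 8C list were marked in the other 4C list in 32.6% to 38.3% and in the other 8C list in 14.7% to 17.1%. Marked bins in general recurred in the replicate in 47.3% and 43.8% at 4C and in 66.0% and 66.8% at 8C. Gains thus recurred at a share slightly below that of 8C bins in general, and losses at a share further below that of 4C bins.

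H3K4me3, the promoter mark, was already present at a part of the bins that gained H3K27ac. At 4C it marked 20.7% and 22.7% of gained bins in its 2 lists, against 3.85% and 4.52% of all bins. At 8C it marked 26.2% and 33.9%, against 2.76% and 4.72% of all bins. The 2 H3K4me3 lists of 8C differed widely in length, and the lower 8C value of the gained bins was still above both 4C values. Kept bins had the highest H3K4me3 share, with 73.8% and 79.4% at 4C and 67.1% and 82.1% at 8C. Lost bins resembled kept bins at 4C, with 70.2% and 77.4%, and had 47.1% and 71.0% at 8C, where 1 list was far below and the other within the 4C range.

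H3K4me3's own gains fell in gained H3K27ac bins more than in bins at large. H3K4me3 was gained, by the same definition, in 4.89% of them (2235 bins) against 0.27% of all bins, and these made up 33.3% of all H3K4me3 gains. Its losses, 0.39% of all bins, were 5.21% of the lost H3K27ac bins and 0.416% of the gained ones. Only bins marked at 4C can lose it. It was in both 4C lists in 65.5% of lost H3K27ac bins, against 3.04% of all bins. Set against the bins that had it in both 4C lists, its losses were thus not more frequent in lost H3K27ac bins than in all bins. Of the bins that lost H3K27ac, 45.5% had H3K4me3 in both 8C lists, against 2.54% of all bins, 27.3% had it in neither, and the rest had it in 1 of them.

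H3K27me3, the Polycomb mark, was low at gained bins and lower there at 8C. It marked 3.24% and 2.73% of gained bins at 4C and 1.75% and 1.83% at 8C, with no overlap between the stages. Over all bins its share was 6.30% and 5.76% at 4C and 5.50% and 5.61% at 8C. Bins changing from H3K27me3 to H3K27ac were nonetheless few. H3K27me3 was lost in 0.773% of gained H3K27ac bins (353 bins) against 0.614% of all bins, and gained in 0.12% against 0.399% of all bins. Only bins marked at 4C can lose it. It was in all 4 of its lists in 0.939% of gained H3K27ac bins (429 bins), against 3.25% of all bins. Set against the bins that kept it, its losses were thus more frequent in gained H3K27ac bins than in all bins. Lost H3K27ac bins took up H3K27me3 in 0.542% of cases (26 bins). Kept bins, with 4.93% and 4.82% at 4C and 4.94% and 4.58% at 8C, and lost bins, with 6.07% and 5.65% and then 6.11% and 5.73%, had about the same H3K27me3 share at both stages.

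H3K9me3, the heterochromatin mark, was also low at gained bins, with values that overlapped between the stages. It marked 2.70% and 2.88% of them at 4C and 2.66% and 2.80% at 8C, against 6.56% and 7.12% and then 6.76% and 6.73% of all bins. Its own gains, 0.302% of all bins, were 0.223% of the gained H3K27ac bins, and its own losses, 0.326% of all bins, were 0.166%. Of the lost H3K27ac bins, 18 gained H3K9me3 (0.375%). The edges of H3K27me3 and H3K9me3 peaks lie on a 200 bp grid against 50 bp for H3K27ac, so a bin's coverage is coarser for these marks.

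**Figure D2:**
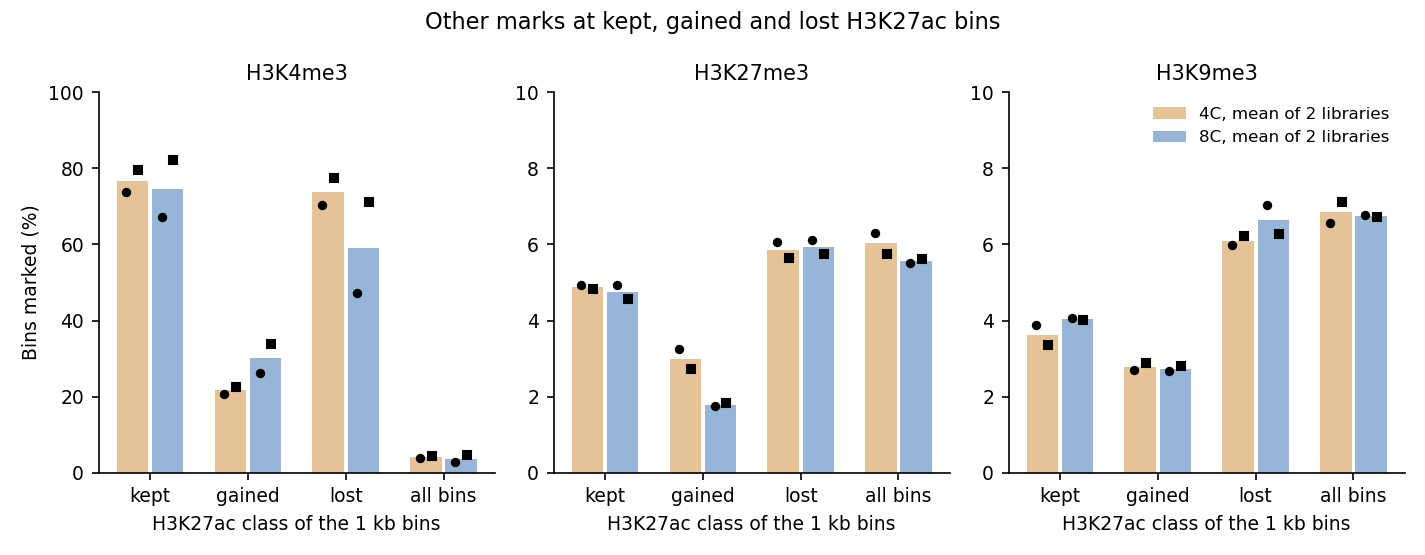
Percentage of kept, gained and lost H3K27ac bins and of all autosomal bins marked by H3K4me3 (axis to 100%), H3K27me3 and H3K9me3 (axes to 10%) at 4C (orange) and 8C (blue); bars are means of 2 libraries and points the libraries (circle replicate 1, square replicate 2). Gained bins stand well below kept and lost bins for H3K4me3 and below all bins for both repressive marks, and their H3K27me3 is lower at 8C.

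The gained bins held 2 contrasting sets. In 28304 of them (62.0%) H3K4me3 was in none of the 4 lists of 4C and 8C, and in 6942 (15.2%) it was in all 4, against 93.5% and 1.89% of all bins. The remaining gained bins had it in some of the 4 lists and were not followed further. The bins with H3K4me3 in all 4 lists lay largely in chromatin that was open in the blastocyst: 76.0% to 86.6% of them were marked in the 9 ATAC lists, against 5.6% to 10.6% of the bins without H3K4me3. H3K27ac was on 66.1% and 68.0% of them in the GV lists, 22.8% and 28.2% in 2C, 75.8% in both 8A lists, 63.9% and 64.4% in MO, and 66.4% to 69.3% in ICM. The bins without H3K4me3 had H3K27ac in 14.0% and 16.8% in GV, 3.44% and 3.99% in 2C, 15.9% and 17.5% in 8A, 23.3% and 25.6% in MO, and 13.4% to 13.9% in ICM. ATAC-seq and these H3K27ac lists played no part in choosing the bins. The same shares for all bins with H3K4me3 in all 4 lists, gained or not, were not computed. The shares above are therefore not known to be particular to gained bins. Of all bins, ATAC-seq marked 2.84% to 4.43%, and H3K27ac 5.05% and 6.05% in GV, 2.34% and 2.91% in 2C, 3.85% and 4.13% in 8A, 4.54% and 4.74% in MO, and 4.11% and 3.83% in ICM.

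The lists differ in length, so the share of gained bins is set against that of all bins in the same list. H3K27ac marked 28.1% and 31.1% of gained bins in GV (mean 5.36 times its share of all bins), 8.65% and 10.4% in 2C (3.64 times), and 33.3% and 34.8% in MO (7.35 times). In 8A embryos, of the same age as 8C but grown with an inhibitor of RNA polymerase II, it marked 31.1% and 32.7% (8.00 times). The ICM lists marked 28.2% and 26.9% and the TE lists 15.8% and 16.5%, which are nearly the same multiples of their shares of all bins (6.94 and 6.91 times).

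Lost bins stood further above all bins before 4C than after 8C. H3K27ac marked 57.5% and 64.6% of them in 2C, as high as at kept bins (59.5% and 63.2%), and 38.9% and 44.2% in GV. These are 23.4 and 7.50 times the shares of all bins in 2C and GV. In 8A embryos 84.4% and 83.9% of the lost bins, which by definition were unmarked in both 8C lists, were marked. In MO this was 10.4% and 10.3%, and in BL 5.53% and 5.98%, which are still 2.23 and 2.83 times the shares of all bins. Kept bins were marked in 94.6% and 94.3% in 8A and in 38.5% and 39.3% in MO and 23.3% and 24.6% in BL. The 8A lists had floors of 12 and 8.75, and the values at the classes were close in both.

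**Figure D3:**
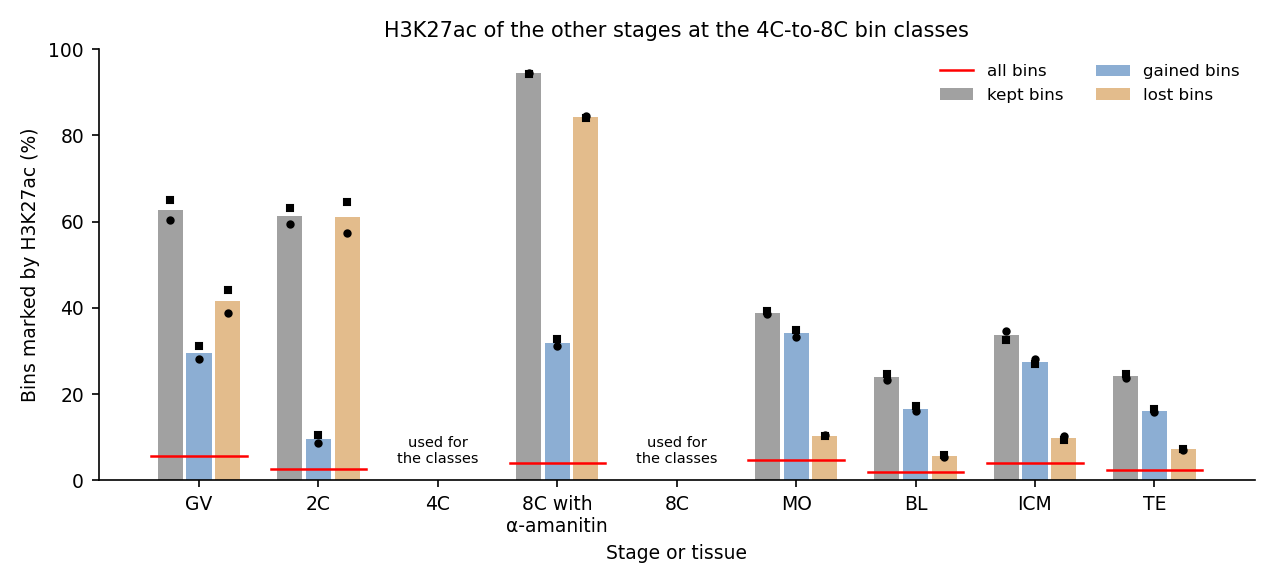
Percentage of kept (grey), gained (blue) and lost (orange) bins marked by H3K27ac in stages that did not define the classes; bars are means of 2 libraries, points the libraries (circle replicate 1, square replicate 2) and red lines the mean share of all bins. Lost bins are marked in over 80% under α-amanitin and in about 10% at MO, and gained bins are marked in about 32% under α-amanitin and 34% at MO.

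Gained bins lay near 4C peaks, and near kept bins, more often than unmarked bins did. The nearest bin touched by any 4C peak was within 5 kb of 75.3% of gained bins, with a median distance of 1 kb, against 24.6% of unmarked bins and a median of 20 kb. A kept bin was within 5 kb of 18.6% of gained bins, against 1.44% of unmarked bins. It was directly next to 6.93% of gained bins, against 0.200% of unmarked bins. Of the gained bins 43.6% were over 100 kb from a kept bin, against 74.8% of unmarked bins. The share within 5 kb came to 30.5% when 4C replicate 1 was left out and 31.2% when 4C replicate 2 was, since more bins then counted as kept. Gained bins formed 30840 runs of adjacent bins, of which 22129 were of 1 bin and 695 of 5 bins or more. Lost bins formed 4420 runs, 4113 of them of 1 bin.

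Neighbouring peaks were closer at their edges at 8C in the lists as deposited, but other measures of clustering did not all move that way. The median gap between neighbouring peaks was 4.80 and 5.20 kb at 4C and 3.15 and 3.20 kb at 8C, and the median distance between centres was 5.30 and 5.75 kb against 4.35 kb in both lists. At the other end of the distribution the 90th percentile of the gaps was larger at 8C, with 83.7 and 78.0 kb against 64.1 and 66.2 kb. Pairs of neighbouring peaks with centres under 1 kb apart were a smaller share, 12.46% and 11.3% at 4C against 4.06% and 4.49% at 8C. Wider peaks lower this share by themselves, since the centres of wide neighbours cannot lie so close. The densest 10% of 1 Mb windows held 31.8% ± 0.42 of the covered length at 4C and 29.1% ± 0.42 at 8C (SD, n = 2), and windows with no peak numbered 23 and 25 at 4C and 8 and 7 at 8C, of 2502. Wider peaks shorten gaps by themselves, and where peaks less than 3 kb apart were joined first the median gap was longer at 8C (log2 ratio 0.51 in place of -0.65). It was also longer at 8C, with a log2 ratio of 1.64, in lists trimmed by score to equal covered length. Score followed width within each list (rank correlation 0.89 to 0.90). Trimming therefore kept the wider peaks of 8C and lengthens gaps by itself, so this value is no separate check of clustering.

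The longest runs show what the classes look like at single places, given on ARS-UCD1.2. The longest gained run, chr10:59850001-59865000, was covered over 86.3% and 87.0% in the 8C lists and 1.33% and 1.67% in the 4C lists. That contrast follows from how gained runs were picked. The 8A and MO lists had no part in the choice. They covered 7% and 1.67% of the run in 8A and 2.67% and 3.67% in MO, and H3K4me3 covered at most 2.33%. The gained run chr18:48118001-48131000 was covered over 98.1% and 93.5% at 8C, 84.2% and 75.8% in MO and 28.5% and 20.0% in 8A. Over the 10 longest gained runs, 8A covered 0% to 41.7% (median 17.1%) and MO 0% to 86.3% (median 23.7%), with 3 of the 10 covered over 50% in both MO lists and none in both 8A lists.

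The longest lost run, chr19:9302001-9310000, was covered over 84.4% and 76.9% at 4C, 67.5% in both 2C lists and both GV lists, and 100% in both 8A lists. It had no H3K27ac peak in the 8C, MO, BL or TE lists. H3K4me3 covered 72.5% and 76.9% of it at 4C and 65.0% and 73.8% at 8C. All 5 longest lost runs were covered over 77.5% to 100% in 8A and over 67.5% to 97.5% in 2C, and H3K4me3 covered them over 55.0% to 97.5% at 4C. None of the 5 had H3K27me3 or H3K9me3 at 4C, and 4 had neither at 8C. The fifth, chr5:118769001-118773000, was covered by H3K27me3 over 65.0% and 60.0% in the 8C lists and by H3K9me3 over 85.0% in 1 of the 8C lists and 0% in the other.

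The longest kept run, chr17:71000001-71012000, was covered over 82.5% to 96.7% at 4C and 8C and open over 31.7% to 60.4% in the ATAC lists. The next 3 kept runs, chr15:84815001-84824000, chr15:84917001-84925000 and chr15:84935001-84943000, lie close together. In these 3, H3K27ac covered 72.5% to 100% at 4C and 8C and 94.4% to 100% in 8A. None of the 3 had an H3K27ac peak in MO, BL, ICM or TE or an ATAC peak in any of the 9 lists. All 3 lie near the end of chromosome 15 (84.96 Mb). At 8C the run from 84917001 was also covered by H3K27me3 over 77.5% and 97.5% and by H3K9me3 over 95.0% and 100%. The run from 84935001 had 47.5% and 87.5%, and 60.0% and 72.5%. The run from 84815001 had no H3K27me3 at 8C, and H3K9me3 over 0% and 80.0%.

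The size of the change differed between autosomes and followed their length. The covered share was higher in both 8C lists than in both 4C lists on all 29 autosomes, but the log2 ratio ran from 0.35 on chromosome 24 to 1.55 on chromosome 3. On chromosome 3, 1.42% was covered in both 4C lists and 4.16% and 4.15% in the 8C lists. Chromosome 6 had 1.18% and 1.17% against 3.26% and 3.45% (1.51), and chromosome 1 had 1.197% and 1.23% against 3.23% and 3.22% (1.41). At the other end, chromosome 24 had 2.36% and 2.49% against 2.98% and 3.19%, chromosome 27 had 2.61% and 2.70% against 3.38% and 3.904% (0.45), and chromosome 13 had 2.37% and 2.52% against 3.79% and 3.66% (0.61). The largest spread of the ratio over the pairings of 1 4C and 1 8C list on any autosome was 0.26.

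Chromosomes 1 to 10 had log2 ratios of 1.15 to 1.55 (median 1.34) and chromosomes 11 to 29 of 0.35 to 1.17 (median 0.83). This split is by chromosome number and not strictly by length. Chromosome 11 (106.9 Mb, ratio 0.94) is longer than chromosomes 9 (104.5 Mb, 1.15) and 10 (103.3 Mb, 1.33). Over the 29 autosomes the rank correlation of the ratio with length was 0.78, a description over points that share the same 4 lists. The covered share fell with length at 4C (rank correlation -0.75) and less so at 8C (-0.19), so short autosomes began with more H3K27ac. The widening was even, with log2 ratios of median width from 0.92 to 1.04 on every autosome. The number of peaks carried the difference: its log2 ratio had a rank correlation of 0.82 with length, and it was below 0 on 18 of the 29 autosomes. In the same-stage pairs of GV, 8A and MO, whose floors differ, the ratio of covered shares over autosomes had an SD of 0.025, 0.025 and 0.12, against 0.32 from 4C to 8C, and its rank correlation with length was 0.21, -0.39 and 0.64. Lost bins made up a larger share of short autosomes (rank correlation -0.84), and gained bins did not follow length (0.02). The share of kept bins (-0.66) and of bases covered in both 4C lists (-0.76) was also larger on short autosomes. Only bins marked at 4C can be lost, and lost bins per autosome were not set against these. The other marks changed less: the log2 ratio per autosome was -0.36 to -0.05 for H3K4me3, -0.37 to 0.09 for H3K27me3 and -0.20 to 0.17 for H3K9me3. Within these narrower ranges the ratios of H3K27me3 and H3K9me3 also followed length, with rank correlations of 0.71 and 0.85, and that of H3K4me3 had one of 0.16.

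**Figure D4:**
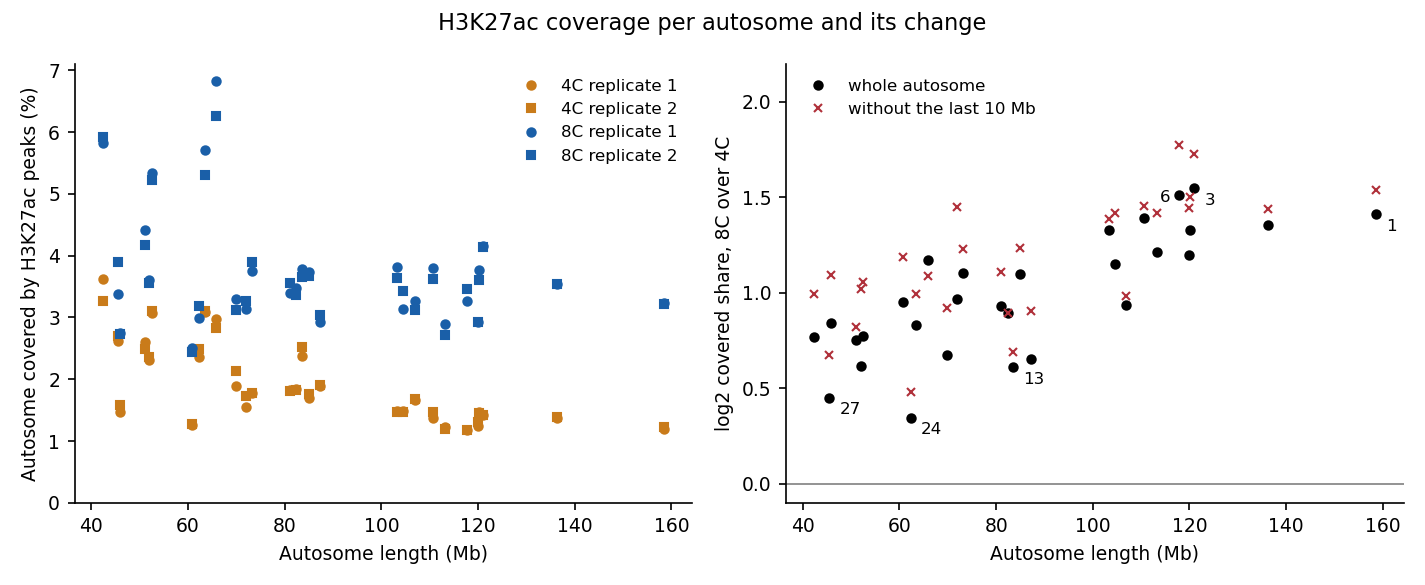
Left, percentage of each of the 29 autosomes covered by H3K27ac peaks against its length in Mb, in the 4 lists. Right, log2 of the covered share at 8C over that at 4C for whole autosomes (black circles, with the 3 largest and 3 smallest numbered) and without the last 10 Mb (red crosses); short autosomes are higher at 4C and change less.

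Along the chromosomes the change had the other sign at one end. Bovine autosomes have their centromere at one tip, and positions are given here by coordinate. In the last 2 Mb of the autosomes the 4C lists covered 4.69% and 4.68% and the 8C lists 4.24% and 3.73%, a log2 ratio of -0.24, while between the first and last 2 Mb the ratio was 1.11. In the first 2 Mb it was 0.65, with 1.71% and 1.73% at 4C and 2.72% and 2.69% at 8C. Counted from the high-coordinate end, coverage at 4C was 4.47% and 4.28% at 0 to 1 Mb and 4.92% and 5.07% at 1 to 2 Mb. Beyond 2 Mb it was lower with each distance class inwards. It was 3.79% and 3.93% at 2 to 5 Mb, 2.72% and 2.74% at 5 to 10 Mb, and 1.37% and 1.40% beyond 40 Mb. At 8C it stayed between 3.39% and 4.46% in all distance classes of replicate 1 and between 3.42% and 4.24% in those of replicate 2.

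The last 2 Mb hold 2.33% of all bins and held 13.3% of the lost bins (638), 5.30% of the kept bins (404) and 2.00% of the gained bins (913). On 18 of the 29 autosomes both 8C lists were below both 4C lists there, on 8 both were above, and on 3 they overlapped. The lowest ratio was on chromosome 13, with 4.31% and 4.92% at 4C and 1.28% and 1.27% at 8C (log2 ratio -1.85). The highest was on chromosome 18, with 4.68% and 4.42% at 4C and 11.1% and 10.3% at 8C (1.23).

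The end of the autosomes was rich in H3K27ac at 2C too, with 8.36% and 10.9% covered, or 3.78 and 3.99 times the autosomal share. In 8A embryos the end was covered over 13.3% and 13.4%, or 3.28 and 3.41 times the autosomal share, against 2.69 and 2.64 times at 4C and 1.16 and 1.03 times at 8C. In GV oocytes it was 1.05 and 1.06 times. H3K4me3, H3K27me3 and H3K9me3 all covered the last 2 Mb at 4.36 to 5.96 times their autosomal share at both stages, and for none of the 3 were both 8C lists below both 4C lists. H3K27me3 covered 27.9% and 25.6% there at 4C and 28.7% and 29.5% at 8C, H3K9me3 30.0% and 31.0% and then 32.7% and 31.0%, and H3K4me3 21.1% and 24.2% and then 16.5% and 24.7%. Without the last 10 Mb of every autosome, a choice made after seeing these values, the change per autosome had a rank correlation of 0.69 with length and ran from 0.48 to 1.78.

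**Figure D5:**
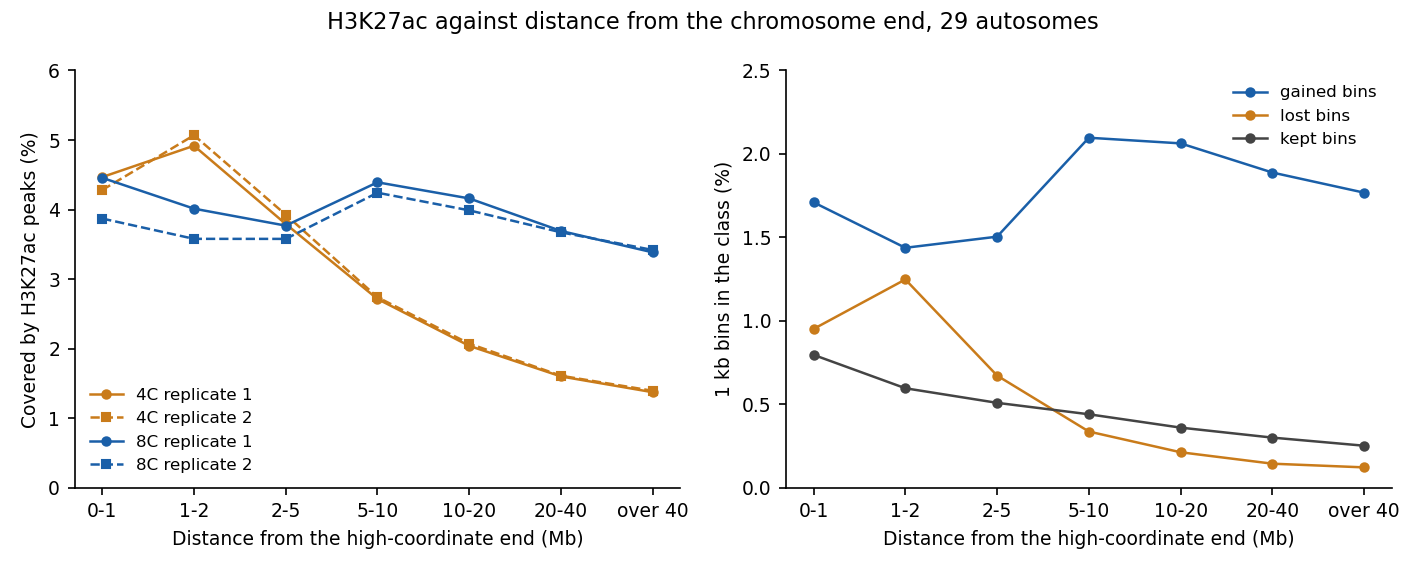
H3K27ac over 29 autosomes by distance from the high-coordinate end in Mb. Left, percentage covered in the 4 lists (4C orange, 8C blue); right, percentage of 1 kb bins that were gained, lost or kept. Coverage at 4C is 4.28% to 5.07% within 2 Mb of the end and about 1.4% beyond 40 Mb, while 8C is nearly flat, and lost bins are most frequent within 2 Mb.

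Lost bins near the end and elsewhere were also read separately, since the end held so many of them. Within the last 10 Mb there were 1712 lost bins and in the rest 3084. H3K27ac in 8A marked 89.95% of the first and 81.0% of the second (mean of 2 lists), in 2C 66.8% and 57.9%, and in MO 7.74% and 11.8%. The shares of all bins in the same areas were 9.17% and 3.30% in 8A, 6.92% and 2.06% in 2C, and 5.78% and 4.49% in MO. H3K4me3 marked 85.5% and 67.3% at 4C, against 13.5% and 2.96% of all bins of the same area. H3K27me3 at 8C marked 9.64% and 3.86%, against 18.5% and 3.85% of all bins of the area.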

How the data were processed

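CUT&Tag (a transposase directed to an antibody-bound mark) and ATAC-seq had been run by the authors, who deposited 1 peak list per library. Per the submitters' processing notes reads were handled with BWA 0.7.9a, SAMtools 1.9, Picard 2.26.10, cutadapt 1.8.3, Trim Galore 0.4.0 and SICER, and ARS-UCD1.2 is the genome named there. Per the labels' file names the lists came from epic2. No label or header read here gives the peak cutoff, the control or the treatment of duplicates. The deposited lists give positions and a whole-number score per peak, whose meaning is not stated. It was used to rank peaks within a list and for the floor described above. Sequencing depth is unknown, so no counting interval is given.

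Of the 81 lists 39 were read. Groups and replicates came from sample titles. Chromosome length was the highest peak end (2488 Mb over 29 autosomes). Bins, runs, gaps and shares were computed with Python 3.11.15, NumPy 2.4.6, pandas 2.3.3 and SciPy 1.17.1, and the bin classes were tested on simulated data. Only covered length was tested (exact permutation). The other values are descriptions with the spread of 2 libraries. The step, the marks and the measures were chosen with earlier results of these data known. Named regions are the 10 longest gained and the 5 longest lost and kept runs, and named autosomes the 3 with the largest and the 3 with the smallest ratio. Genes and sequences were not analysed here.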

Additional observations from a re-analysis of the deposited data

How the results depend on the processing

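Having 2 libraries per stage, with unknown depth and peak cutoffs, limits the precision: no comparison here can reach an exact p below 0.333, and the covered length depends on how each list was called. Replicate numbers did not pair the samples (correlation of deviations 0.00051 over marked bins and 0.11 over autosomes), and with the replicate block the exact permutation p of covered length was 0.5 (the smallest it allows) in place of 0.333.

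Of the 165 values recomputed, 81 stayed within the spread over the 4 pairings of libraries (for counts, within 1.5 times), 82 moved further and 2 changed sign. Those left unnamed here include 14 for H3K4me3 at lost and kept bins, all above the share of all bins. Scores followed peak width (rank correlation 0.89 to 0.90), so trimming by score keeps the wider peaks. Trimming lists to equal covered length leaves no length to compare, and its width and gap values are no separate check. It gave a log2 ratio of median width of 1.83, a difference of 45.9 percentage points in the share of length in peaks of 2 kb or more, a log2 ratio of median gap of 1.64 (longer at 8C, in place of -0.65), an SD over autosomes of 0.36, a rank correlation with length of 0.59, 19631 gained, 7894 lost and 4980 kept bins, 23.7% of gained bins near a kept bin, and H3K4me3 at gained bins 7.16 (4C) and 11.9 (8C) times its share of all bins. Dropping the lowest 25% of scores gave 1.07 for covered length, 1.04 for width, 25.0 points, -0.57 for gaps, and 5.69 and 9.11 for H3K4me3. Joining peaks less than 500 bp apart gave 35.6 points, -0.090 for gaps and 19.0% near a kept bin. Joining at 3 kb, which removes all shorter gaps, gave 1.22 for width, 9.89 points, 0.51 for gaps and 20.0%.

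With any covered base marking a bin there were 26149 lost and 28922 kept bins, 33.5% of gained bins near a kept bin, and H3K4me3 at 2.45 and 4.22. With full coverage there were 11781 gained, 110 lost and 214 kept bins, 1.59%, and 25.2 and 34.7. Bins of 500 bp gave 80573, 17989 and 20758 bins, 36.5%, and 4.74 and 7.91. Bins of 5 kb gave 6456, 140 and 237 bins, 1.55%, and 8.36 and 16.1. Gained bins outnumbered lost bins under all of these settings. Leaving out each library in turn gave 50751 to 74418 gained, 5978 to 15642 lost and 8809 to 13017 kept bins, 16.4% to 31.2%, 4.21 to 6.07 and 6.55 to 9.22 for H3K4me3, 0.49 to 0.59 (4C) and 0.32 to 0.42 (8C) for H3K27me3, and 0.40 to 0.50 for H3K9me3 at 8C. Bases covered in both lists of a stage gave an SD over autosomes of 0.36, and leaving out the last 10 Mb a rank correlation of 0.69; both were chosen after seeing the data.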
